A study of Mus musculus with 10 samples.

Results

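The Notch pathway passes signals between touching cells. A ligand of the Delta or Jagged family on one cell binds a Notch receptor on its neighbour, gamma-secretase frees the receptor's intracellular part, and this part joins the DNA-binding protein Rbpj in the nucleus to switch on repressor genes of the Hes and Hey families. Fringe enzymes such as Lfng add sugars to the receptor and change which ligands it answers to. In the kidney, Notch signalling is known for its part in forming the proximal segments of the nephron, with Notch2 as the main receptor there, while in vessels and their mural cells other members are used.

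The genes described here are 3 receptors (Notch1, Notch2, Notch3), 3 ligands (Jag1, Jag2, Dll1), the fringe enzyme Lfng and 3 target genes (Hes1, Hey1, Heyl). They were chosen by name, and every probe set annotated to exactly 1 of these 10 symbols was taken, which gave 19 of the 45101 probe sets on the array. Notch1, Notch2, Notch3, Jag2 and Lfng had 2 probe sets each, Jag1 and Heyl 3, and Dll1, Hes1 and Hey1 1.

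RNA came from metanephric mesenchyme of mouse kidneys at E11.5, separated from the bud enzymatically (trypsin and pancreatin), and was hybridised to Affymetrix Mouse Genome 430 2.0 arrays. One group of 5 arrays held Wnt9b-/- tissue, called mutant, and the other group of 5 held tissue labelled Wnt9b+/+ from littermates, called wild type. The series' design text describes the controls as Wnt9b+/- instead, and the sample labels were followed. Wnt9b is a secreted Wnt ligand made by the ureteric bud, and the comparison addresses how its loss is reflected in mesenchymal transcripts. Each array had its own pool of 25 to 30 mesenchymes, and no other allele or treatment is named. Values are probe-set signals on a linear scale, scaled by the authors, and differences are of log2(signal + 1), called log2 signal, as mutant minus wild type.

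Median signals of the arrays were 62.5 to 78.0. The signal of Wnt9b itself on its brighter probe set was 41.8 to 106 in the mutant and 78.2 to 99.7 in wild type. Its dimmer probe set was at 6.39 to 49.1 in the mutant and 19.9 to 49.5 in wild type. The position of these probes in the mutant allele is not given in the sources, so the values check nothing about the labels. Defining markers of the labelled tissue were measured in all arrays, with Six2 at 580 to 1350 in the mutant and 1061 to 1774 in wild type, and Wt1 at 500.2 to 826 and 771 to 1315. The array's 5' probe set for 18S ribosomal RNA split the arrays into 4 with signals of 1975 to 2587, 2 of each group, and 6 with signals of 92.4 to 322, 3 of each group. Differences within each of these sets are given beside the results they touch.

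No member probe set was called at an adjusted p under 0.05 (limma, Benjamini-Hochberg over 45037 probe sets). Over the whole array 2 probe sets, or 0.00444%, were called. At an unadjusted p under 0.05, 1 of the 19 member probe sets was lower and 0 were higher, where 1.95% of all probe sets were lower and 2.56% higher, 4.51% in all. Of the members' probe sets 8 were lower and 11 higher, with a median difference of +0.045, and over all probe sets 48.2% were lower and the median was +0.01. The groups overlapped in 18 of 19, and did not overlap in 1, where 0.888% of all probe sets had groups that did not overlap. Both counts of 1 are the brighter Notch2 probe set, and the count at an unadjusted p under 0.05 ran from 1 to 4 over the other settings and on leaving out each array, with 4 without wild-type replicate 3. Nothing about the members as a list is read from them, and the values below describe single genes.

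**Figure D1:**
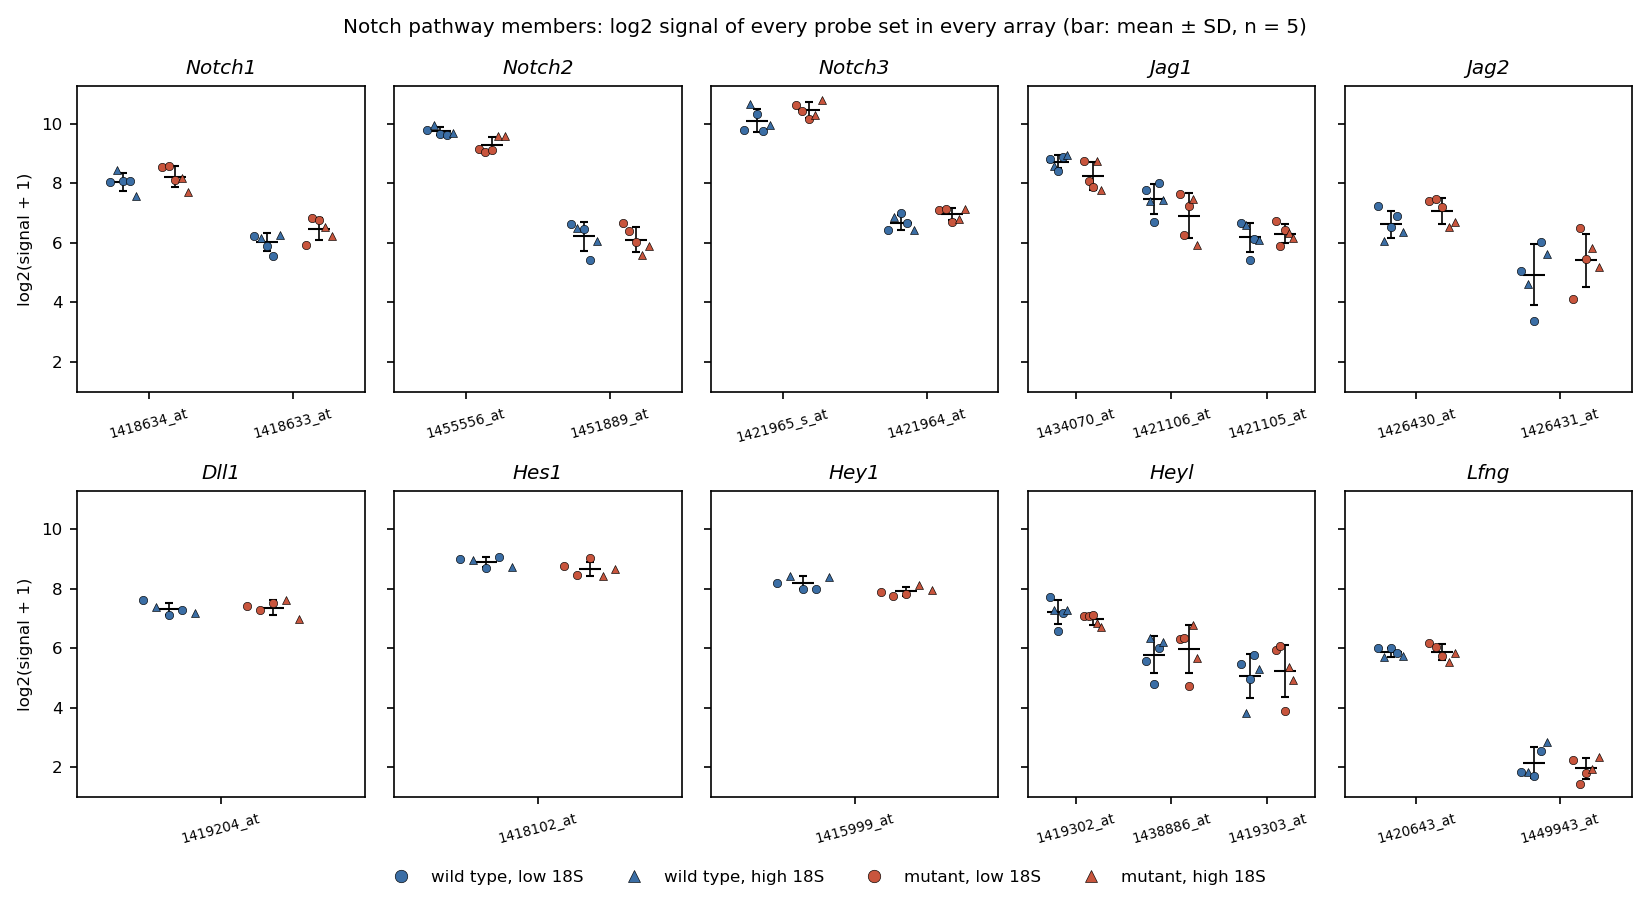
Log2 signal (vertical axis) of each of the 19 probe sets in each of the 10 arrays, wild type in blue and mutant in red, with triangles for the 4 high-18S arrays and circles for the 6 low-18S arrays; horizontal marks are group means and whiskers SDs (n = 5). The groups separate for Notch2 1455556_at, where all 5 mutant arrays lie below all 5 wild-type arrays, and overlap in the other 18; levels of different probe sets are not comparable with each other.

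Among the receptors, Notch2 was lower in the mutant and Notch1 and Notch3 had higher means, and only the first difference passed an unadjusted p of 0.05. Notch2, the receptor known for proximal nephron fate, had signals on its brighter probe set 1455556_at of 566, 530, 554, 761 and 763 in mutant replicates 1 to 5. In wild-type replicates 1 to 5 they were 888, 997, 812, 783 and 816. Every mutant array was below every wild-type array, and the 2 highest mutant arrays, replicates 4 and 5, were the 2 high-18S ones. The mean log2 signal was 9.29 ± 0.26 (SD, n = 5) in the mutant and 9.74 ± 0.14 (SD, n = 5) in wild type, 1.37-fold lower (difference -0.45, SE 0.16, 95% interval -0.80 to -0.10). The unadjusted p was 0.0164 and the limma adjusted p 1.00, and an exact permutation of the arrays gave 0.00794, the smallest that 252 arrangements allow. The difference was -0.59 within the low-18S arrays and -0.24 within the high-18S arrays. Those 2 values differed by 0.34 with an SE of 0.25, which is within error (limma, unadjusted p = 0.199, a test chosen after the data were seen).

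The other Notch2 probe set, 1451889_at, was dim, with signals of 47.6 to 99.4 in the mutant and 42.0 to 97.5 in wild type, which overlap almost fully. It differed by -0.11 (SE 0.28), and by -0.54 in the high-18S set and +0.18 in the low-18S set. Its interval of -0.73 to +0.51 includes both no change and the difference of the brighter probe set.

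Notch1, a receptor prominent in endothelium, had signals of 368, 385, 273, 289 and 208 in the mutant and 264, 348, 269, 266 and 189 in wild type on its brighter probe set 1418634_at. The groups overlapped, and the difference was +0.18 (SE 0.22), with +0.063 without wild-type replicate 5 and +0.31 without mutant replicate 5. The dimmer probe set 1418633_at differed by +0.43 (SE 0.22, unadjusted p = 0.0733), with 59.5 to 113 in the mutant and 46.5 to 75.3 in wild type. Its 3 highest arrays, at 113, 107 and 92.3, were mutant, while mutant replicates 1 and 5, at 59.5 and 74.8, lay inside the wild-type range. Its difference ran from +0.32 without wild-type replicate 4 (unadjusted p = 0.170) to +0.57 without mutant replicate 1 (unadjusted p = 0.0197).

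Notch3, known as the receptor of mural cells, had signals of 1572, 1381, 1128, 1255 and 1777 in the mutant and 887, 1615, 1291, 858 and 991 in wild type on probe set 1421965_s_at. Wild-type replicate 2 lay among the highest mutant arrays, and the difference of +0.36 (SE 0.21) did not pass (unadjusted p = 0.124). Leaving out each array in turn gave +0.27 without wild-type replicate 4 (unadjusted p = 0.253) to +0.50 without wild-type replicate 2 (unadjusted p = 0.0306), the one leave-out that passed. The suffix of this probe set marks probes that match more than 1 transcript. Its dimmer probe set 1421964_at gave nearly the same difference, +0.30 (SE 0.17), with 104 to 140 in the mutant and 84.4 to 126 in wild type.

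Jag1, a Jagged ligand of the early nephron, had the lowest mean change among the ligands. Its brightest probe set 1434070_at had signals of 426, 272, 231, 432 and 219 in mutant replicates 1 to 5 and 452, 378, 342, 472 and 488 in wild-type replicates 1 to 5. Mutant replicates 2, 3 and 5 were below all wild-type arrays, and mutant replicates 1 and 4 lay inside the wild-type range. The mean log2 signal was 8.25 ± 0.47 (SD, n = 5) in the mutant and 8.73 ± 0.22 (SD, n = 5) in wild type, a difference of -0.48 (SE 0.23, 95% interval -0.999 to +0.037). It missed the threshold before adjustment (limma, unadjusted p = 0.0656; exact permutation p = 0.0873). The difference was -0.48 within each of the 18S sets, with an SE of 0.53 on the gap between the sets. That SE is larger than the difference, so whether it moved with the split cannot be told. The difference was -0.60 without mutant replicate 1 (unadjusted p = 0.0271) and -0.61 without mutant replicate 4 (unadjusted p = 0.0247). In the other direction it was -0.37 without mutant replicate 5 (unadjusted p = 0.153) and -0.38 without mutant replicate 3 (unadjusted p = 0.146).

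The Jag1 probe set 1421106_at also had a lower mean, with signals of 199, 76.1, 148, 178 and 60.4 in the mutant and 218, 168, 103, 258 and 174 in wild type. Its difference of -0.56 (SE 0.38) was no larger than the spread between arrays, and it ran from -0.31 without mutant replicate 5 to -0.75 without wild-type replicate 3. The dimmest Jag1 probe set, 1421105_at, went the other way by a small amount, +0.13 (SE 0.26), with 57.8 to 105 in the mutant and 41.7 to 100 in wild type.

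Jag2, the other Jagged ligand, had signals of 168, 177, 147, 91.3 and 102 in the mutant and 148, 66.1, 91.6, 120 and 81.4 in wild type on probe set 1426430_at. Both high-18S arrays were the lowest 2 of each group, and the difference of +0.44 (SE 0.27) did not pass (unadjusted p = 0.135). With the 18S set as a block it kept its size and had an unadjusted p of 0.0212 (limma adjusted p = 0.930), and the 18S sets taken singly gave +0.39 (high) and +0.47 (low). The probe set 1426431_at was dim and scattered, with 16.2 to 88.9 in the mutant and 9.37 to 63.6 in wild type (+0.48, SE 0.55).

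Dll1, the Delta-type ligand of the first nephron epithelium, did not differ detectably. Its signals were 169, 155, 181, 195 and 125 in the mutant and 196, 167, 137, 156 and 142 in wild type, a difference of +0.045 with a 95% interval of -0.32 to +0.41. Arrays of both groups were mixed in rank.

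Lfng, the fringe glycosyltransferase, had signals of 71.6, 65.3, 52.6, 45.1 and 55.7 in the mutant and 63.7, 51.6, 62.6, 55.5 and 52.1 in wild type on probe set 1420643_at. These lie near or below the array medians. The groups differed by +0.011 (95% interval -0.34 to +0.36), and the sign turned under quantile normalization (-0.0059) and median centring (-0.010). The other probe set, 1449943_at, had signals of 1.74 to 4.10 in the mutant and 2.28 to 6.20 in wild type, too dim to read a change from (-0.20, SE 0.27).

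Promoter sequence was looked at for the receptors, ligands and Lfng, since Rbpj is the factor through which Notch acts on its targets and TCF/LEF factors are those of canonical Wnt signalling. The RefSeq promoter table for GRCm38.p6 matched 7 of the 10 members (8 entries, with 2 for Dll1); Hes1, Hey1 and Heyl are not analysed here. The 250 bases before each start were searched on both strands for TGGGAA, 1 form of the core of the Rbpj site (TTCCCA on the other strand). They were also searched for CTTTGA, 1 form of the core of the TCF/LEF site (TCAAAG on the other strand). Other forms of either core, such as CTTTGT for TCF/LEF, were not searched. The Rbpj letters occurred in 1 of the 7 genes, Lfng, and in 21.6% of all 32851 promoter entries. The letters CTTTGA occurred in 0 of the 7, and in 13.8% of all entries, which leaves other forms of the TCF/LEF core uncounted. The promoters shown are 3: Lfng, as the one with matches, and Notch2 and Jag1, as the members whose brightest probe sets were lowest in the mutant. Capitals mark the Rbpj letters, and each runs 5′ to 3′ on the gene's strand, chr5:140607091-140607340 (+) for Lfng, chr3:98013288-98013537 (+) for Notch2 and chr2:137116521-137116770 (-) for Jag1.
Lfng: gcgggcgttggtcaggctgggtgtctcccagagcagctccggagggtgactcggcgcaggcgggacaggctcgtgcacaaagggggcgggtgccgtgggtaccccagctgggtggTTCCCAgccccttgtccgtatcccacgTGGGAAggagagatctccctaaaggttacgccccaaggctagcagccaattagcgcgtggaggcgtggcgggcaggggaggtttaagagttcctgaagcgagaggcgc
Notch2: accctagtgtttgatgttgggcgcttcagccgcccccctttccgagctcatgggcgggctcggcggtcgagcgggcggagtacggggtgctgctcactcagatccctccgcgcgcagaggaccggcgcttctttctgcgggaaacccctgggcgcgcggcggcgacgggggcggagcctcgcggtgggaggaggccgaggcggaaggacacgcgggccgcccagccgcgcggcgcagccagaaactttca
Jag1: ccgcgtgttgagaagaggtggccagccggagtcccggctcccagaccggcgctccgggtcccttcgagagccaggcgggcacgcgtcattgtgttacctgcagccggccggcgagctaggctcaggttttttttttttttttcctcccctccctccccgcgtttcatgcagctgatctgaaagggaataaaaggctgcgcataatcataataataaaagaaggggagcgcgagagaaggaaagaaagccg
The 2 matches in Lfng begin 135 and 108 bases before the start, 1 on each strand. A match of letters is a description and does not show a bound site.

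The target genes all had lower means on their brightest probe sets, and none passed limma's unadjusted p of 0.05. Hes1, the repressor most widely used as a readout of Notch signalling, had signals of 427, 352, 516, 341 and 403 in the mutant and 503, 501, 413, 536 and 424 in wild type. Mutant replicates 2, 4 and 5 were below all wild-type arrays and mutant replicate 3 was above all arrays except wild-type replicate 4. The difference was -0.23 (SE 0.15, 95% interval -0.58 to +0.12).

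Hey1, a related repressor, had signals of 233, 214, 223, 279 and 248 in the mutant and 291, 344, 249.8, 255 and 337 in wild type. All mutant arrays but replicate 4 were below the wild-type range. The mean log2 signal was 7.90 ± 0.15 (SD, n = 5) in the mutant and 8.20 ± 0.22 (SD, n = 5) in wild type, a difference of -0.30 (SE 0.15, unadjusted p = 0.0717, limma adjusted p = 1.00). The exact permutation of the arrays gave p = 0.0397 for this probe set, under the threshold that limma's p missed. With the 18S set as a block the unadjusted p was 0.0258, and the sets taken singly gave -0.37 (high) and -0.25 (low).

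Heyl, the third Hey family repressor, had signals of 134, 134, 137, 113 and 103 in the mutant and 208, 156, 93.9, 145 and 154 in wild type on probe set 1419302_at. Wild-type replicate 3 was the lowest of all 10 arrays, and the other wild-type arrays were above every mutant array. The difference was -0.25 (SE 0.21). It was -0.41 without wild-type replicate 3 (unadjusted p = 0.0342) and -0.12 without wild-type replicate 1 (unadjusted p = 0.545). It was -0.52 in the high-18S set (unadjusted p = 0.0474) and -0.068 in the low-18S set. The gap between the sets, -0.45 with an SE of 0.43, is within error (limma, unadjusted p = 0.330, a test chosen after the data were seen). The dimmer probe sets 1438886_at and 1419303_at had opposite signs to 1419302_at, +0.18 (SE 0.42) and +0.17 (SE 0.47), so the mean of the 3 was +0.037.

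**Figure D2:**
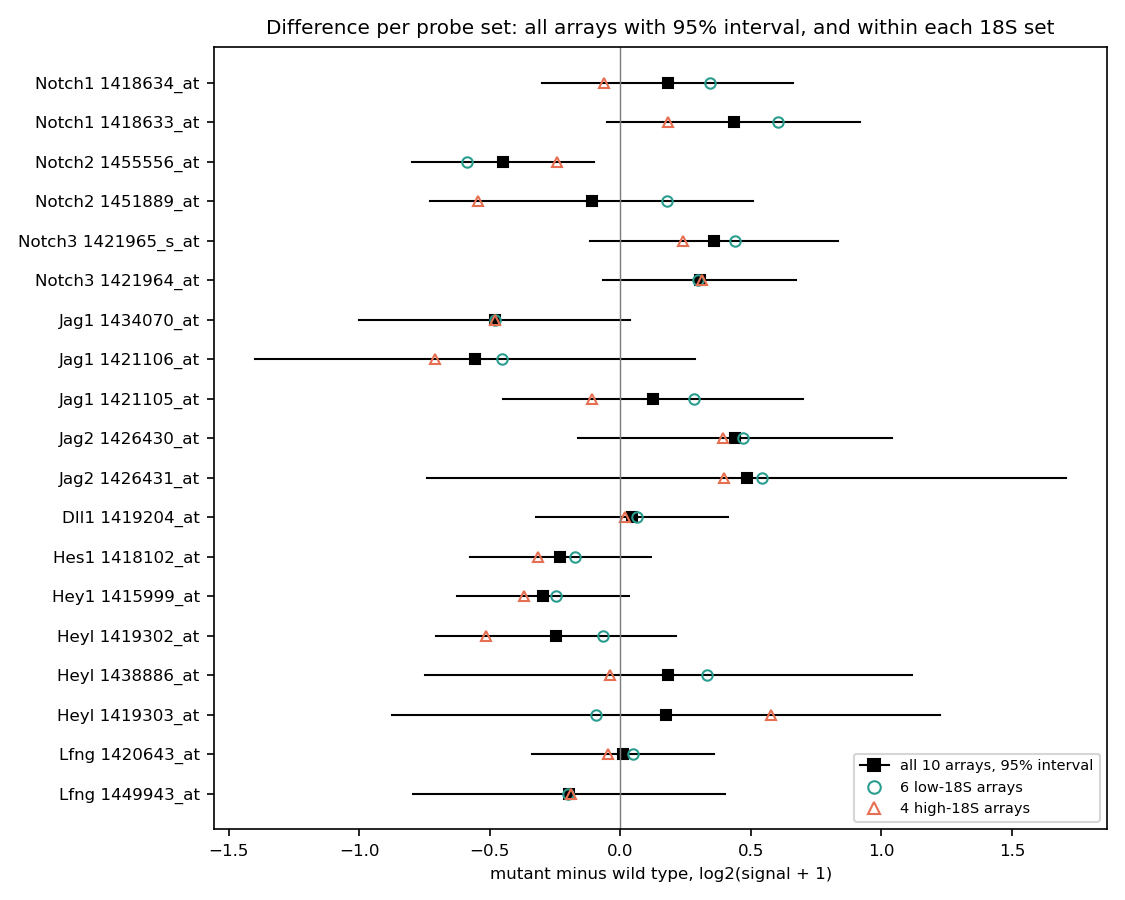
Mutant minus wild-type difference in log2 signal (horizontal axis) for each member probe set: squares are all 10 arrays with limma's 95% interval, circles the 6 low-18S arrays and triangles the 4 high-18S arrays. Of the 19 intervals, that of Notch2 1455556_at (-0.80 to -0.10) lies wholly on one side of 0.

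Whether probe sets of 1 gene changed by different amounts was tested on the difference between each probe set and the brightest one of the same gene within each array. Over the whole array 16752 such pairs were tested, and limma called 0 of them (0%) at an adjusted p under 0.05, with 506 (3.02%) at an unadjusted p under 0.05. Of the 9 pairs among the members 0 passed before adjustment with all arrays. The widest gap was between Jag1 1421105_at and 1434070_at. The former minus the latter had a mean log2 difference of -1.94 ± 0.42 (SD, n = 5) in the mutant and -2.55 ± 0.45 (SD, n = 5) in wild type, so their changes differed by 0.61 (SE 0.28, 95% interval -0.013 to +1.23, limma unadjusted p = 0.0542). Leaving out each array in turn gave gaps of 0.48 to 0.75, with an unadjusted p under 0.05 in 3 of the 10 cases (lowest 0.0241, without wild-type replicate 2). The same pair had one under 0.05 in 4 other settings, with quantile normalization, a pseudocount of 16, the dimmest 40% of probe sets left out and a replicate block built from wording that array titles have in common. Its adjusted p was 0.904 or more in all of these.

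For Notch2 the changes of the probe sets differed by 0.34 (SE 0.33, 95% interval -0.39 to +1.07). That gap was -0.30 within the high-18S arrays, so its direction was not the same in both sets. The 2 brighter Jag1 probe sets differed by -0.076 (SE 0.28), those of Notch3 by -0.056 (SE 0.18) and those of Jag2 by +0.044 (SE 0.58). The 2 dimmer Heyl probe sets each differed from the brightest by about the size of their error, +0.43 (SE 0.42) and +0.42 (SE 0.49), and the former was +0.78 without mutant replicate 3 (unadjusted p = 0.0332). The gaps of Notch1 and Lfng were +0.25 (SE 0.30) and -0.21 (SE 0.32). Unequal change among probe sets of Notch2 and Jag1 was thus not called with 5 arrays a group, and the intervals include gaps as large as the changes themselves.

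**Figure D3:**
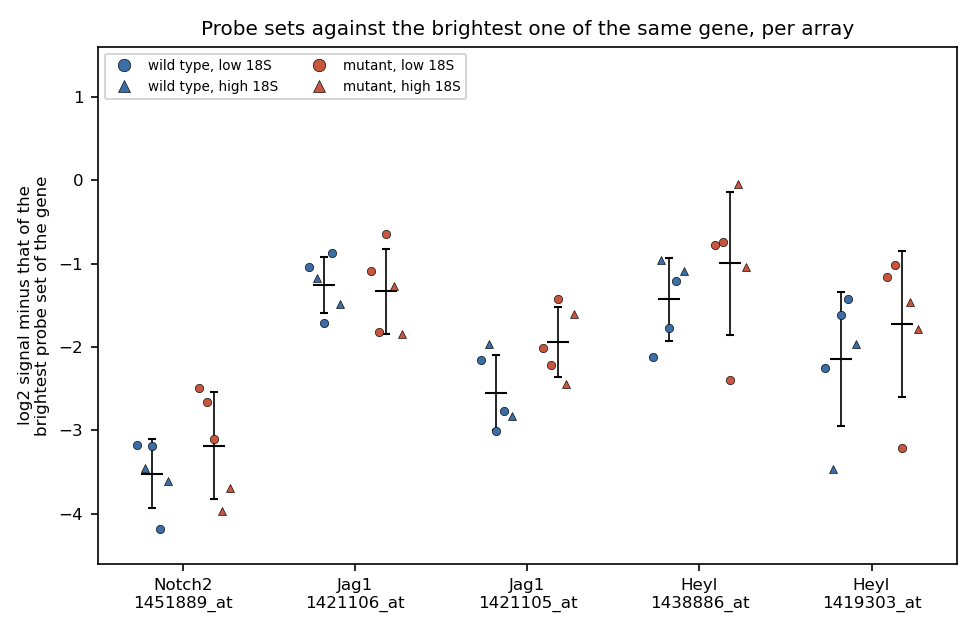
Log2 signal of a probe set minus that of the brightest probe set of the same gene (vertical axis) in each array, for Notch2, Jag1 and Heyl; colours and shapes as in the plot of member values, with means and SDs (n = 5). The groups overlap for all 5 pairs, and the largest shift between group means is that of Jag1 1421105_at, from -2.55 in wild type to -1.94 in the mutant.

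Of 50 other core genes of the pathway, 46 were measured, each by its brightest probe set. None was called (limma, adjusted p), and 0 of 46 passed an unadjusted p of 0.05 in either direction, where 4.62% of all 18193 genes did. Of the 46, 15 were lower and 31 higher, with a median of +0.08, and over all genes 8202 were lower and 9991 higher with a median of +0.02. Over all 95 probe sets of the same 46 genes, 48 were lower and 47 higher (median -0.00051), so the lean towards higher values was seen in the brightest probe sets and not over all of them. Among the other receptors and ligands 5 of 6 were higher and the smallest p was that of Dll3, a Delta-like protein of somites and neurons, at +0.40 (SE 0.29). Notch4 and Dll4, the endothelial receptor and ligand, were at +0.13 (SE 0.12) and -0.24 (SE 0.20).

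By their brightest probe sets all 4 glycosylation genes had higher means, led by Rfng, another fringe, at +0.22 (SE 0.16). The dimmer probe set of Rfng was at +0.19 (SE 0.28), and those of Pofut1 were at -0.32 (SE 0.28) and -0.29 (SE 0.54). Of the 11 genes of ligand and receptor trafficking 7 were higher, and Mib2, a ubiquitin ligase for ligands, was at +0.28 (SE 0.18). Of the 8 measured proteases 7 were higher, and Psen2, a catalytic subunit of gamma-secretase, was at +0.16 (SE 0.14). Its dimmer probe set was at -0.39 (SE 0.17). Of the 12 measured genes of the nuclear complex 8 were lower. Rbpj, the DNA-binding partner of every Notch receptor, was at -0.20 (SE 0.13), and its other probe sets were at -0.20 (SE 0.25) and -0.12 (SE 0.13). Of the 5 genes listed as other targets 4 were higher, and Hes6, which had the smallest p, was at -0.13 (SE 0.16). The dimmer probe set of Hes6 was at +0.0031 (SE 0.29). Whether Notch regulates Hes6 in this tissue was not tested.

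**Figure D4:**
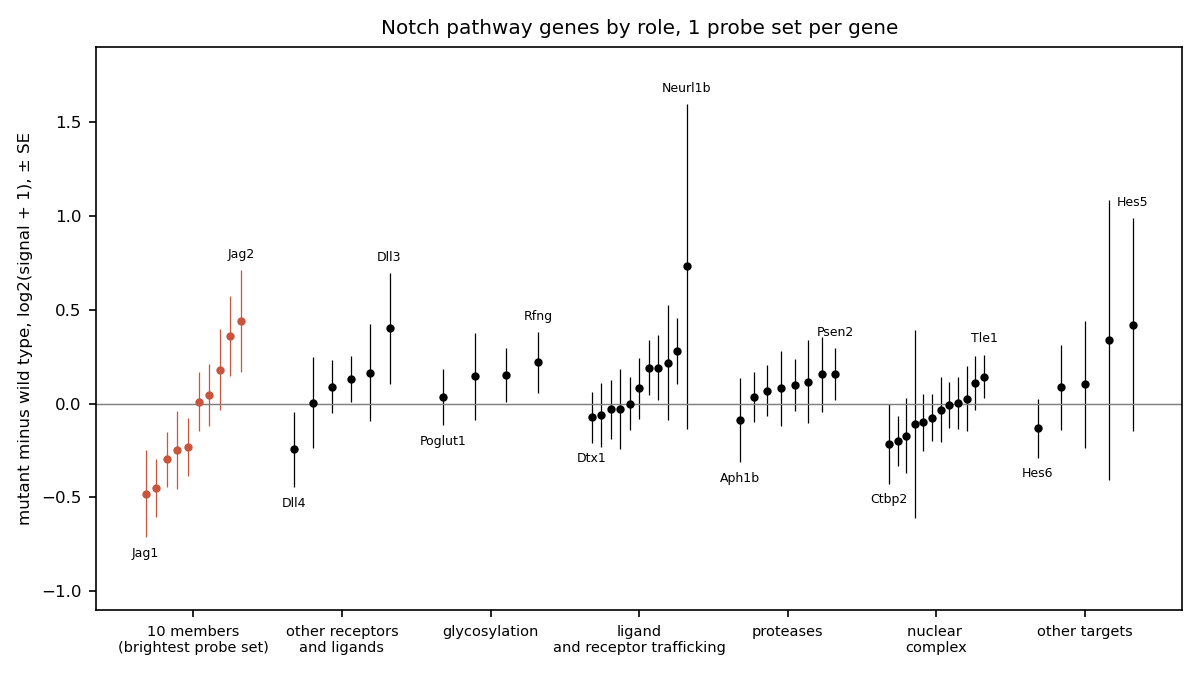
Mutant minus wild-type difference in log2 signal with its SE (vertical axis) for the 10 members by their brightest probe sets (red) and for 46 other Notch pathway genes by role (black), with the lowest and highest gene of each class named. The members run from -0.48 (Jag1) to +0.44 (Jag2), and the wide bars belong to dim genes such as Neurl1b at +0.73.

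Cell type markers were set beside these values, since in bulk tissue fewer cells of a type and less RNA per cell cannot be told apart. Nephron progenitor markers were lower in 10 of 11. Their summed signal was 4554 to 8387 in the mutant and 9066 to 10904 in wild type, without overlap. The marker lists were chosen with earlier results of these data known. Of 6 nephron induction markers 5 were lower, with sums of 1649 to 2679 and 2484 to 2880. Endothelial markers were higher in 11 of 11, with overlapping sums of 3416 to 4573 in the mutant and 3302 to 4290 in wild type. Mural cell markers were higher in 5 of 8 (3160 to 5566 and 3320 to 4369), ureteric bud markers in 6 of 12 (1389 to 4098 and 1902 to 3474) and neuron and neural crest markers in 3 of 5 measured (590.1 to 920.2 and 463 to 670). Stromal markers were higher in 5 of 7, macrophage markers in 6 of 6 and erythroid markers in 5 of 6, all with overlapping sums. At an unadjusted p under 0.05 (limma), 8 progenitor and 3 induction markers were lower. Higher at that threshold were 2 stromal, 2 neuron and neural crest and 1 macrophage marker. Over all genes 4.62% passed in either direction. No marker was at 0 in any array. The part of these cell types in the differences of the Notch genes was not tested.

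The genes closest in pattern to Notch2 and Jag1 were sought among 9235 genes with a mean log2 signal of 7 or more, by Pearson's r over the 10 arrays after each group's mean was subtracted, so that the genotype difference played no part. For Notch2 1455556_at they were St8sia2 (r = 0.97), Tmub2 (r = 0.95) and Sumf1 (r = 0.95). These genes had higher means in the mutant, by +0.15 (SE 0.19), +0.17 (SE 0.16) and +0.12 (SE 0.15). None of these differences passed (limma, unadjusted p of 0.454, 0.289 and 0.456). Whether they differ from that of Notch2 was not tested. For Jag1 1434070_at they were Esam (r = 0.93), an endothelial adhesion molecule, Prdm6 (r = 0.91), a transcriptional regulator of smooth muscle, and 5530601H04Rik (r = 0.90). Esam and Prdm6 had higher means in the mutant, by +0.12 (SE 0.15) and +0.50 (SE 0.27), and 5530601H04Rik was at -0.082 (SE 0.13). The highest of 9235 coefficients over 10 arrays is large by selection, and the values are given as a description.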

How the data were processed

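The authors deposited 1 table of probe-set intensities on a linear scale for 10 arrays. Which summarisation algorithm was used is not given. Trimmed by 2% on both sides, the deposited intensities had the same mean on all arrays (250.0), so they had been scaled. Log2(signal + 1) was used, and folds of dim genes come out too small on it. Replicate numbers were given in accession order and pair nothing. Per the labels' protocols, each array held a distinct RNA pool.

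The 64 control probe sets were left out. Of the other 45037, 34945 had 1 gene symbol, 932 several and 9160 none in the platform annotation used here. The groups were compared by limma 3.58.1 (lmFit and eBayes, two-sided; R 4.3.3), with Benjamini-Hochberg adjustment over all probe sets and no filter. Changes of probe sets of 1 gene were compared by the same test on within-array differences. The scripts were tested on simulated data. Every member probe set is named, and of each pathway class the gene with the smallest p. Other genes named were chosen after their values were seen. The members, lists and the 18S split (at a signal of 1000) were chosen with earlier results of these data known.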

Additional observations from a re-analysis of the deposited data

How the results depend on the processing

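Over the whole array 2 probe sets were called. The number was 3 with median centring, a pseudocount of 16 or the title-wording replicate block, and lower with quantile normalization (1), without mutant replicate 2 and wild-type replicate 3, whose hybridisation controls were brightest (1), and with the unmoderated test, the 18S block or either 18S set alone (0 each); leaving out 1 array gave 0 to 1. None was a member. The count of member probe sets with an unadjusted p under 0.05 was 2 without the dimmest 40% of probe sets (which drops 3 members' probe sets), with trend and robust moderation, with the unmoderated test and without those 2 arrays. It was 3 with array weights or the 18S block, and 4 with the replicate block for shared title wording (consensus correlation 0.37). On leaving out 1 array it was 1 to 4, with 3 without mutant replicate 1 or 4, 2 without wild-type replicate 2 and 4 without wild-type replicate 3. In all settings with such members the adjusted p stayed above 0.05. Notch2 1455556_at was lower in all settings run, from -0.59 to -0.24, and kept an unadjusted p under 0.05 without each array in turn, but not within the high-18S arrays alone or when its probe sets were averaged. Jag1 1434070_at had one under 0.05 in 4 settings and on leaving out mutant replicate 1 or 4. No pair of member probe sets was called under any setting run.

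All 43 changes of sign concerned differences that had not passed. Within the high-18S arrays Notch1 1418634_at was at -0.063, Jag1 1421105_at at -0.11, Heyl 1438886_at at -0.040, Lfng 1420643_at at -0.047, the Notch2 pair at -0.30 and the Notch3 pair at +0.074. Within the low-18S arrays Notch2 1451889_at was at +0.18, Heyl 1419303_at at -0.095, the pair of Jag1 1421106_at at +0.026 and the pair of Heyl 1419303_at at -0.027. Without the 2 arrays with the brightest controls Jag2 1426431_at was at -0.17, its pair at -0.49, Heyl 1438886_at at -0.16, Heyl 1419303_at at -0.060 and Lfng 1420643_at at -0.0016. With array weights Heyl 1438886_at was at -0.013 and the Jag2 pair at -0.12, and that pair was at -0.068 with a pseudocount of 16 and -0.21 with the replicate block. Lfng 1420643_at was at -0.0059 with quantile normalization, -0.010 with median centring and -0.093 when probe sets were averaged, which put Heyl at +0.037. Leaving out each array in turn gave ranges of -0.31 to +0.016 for Notch2 1451889_at, -0.065 to +0.25 for Jag1 1421105_at, -0.019 to +0.14 for Dll1, -0.063 to +0.49 for Heyl 1438886_at, -0.13 to +0.51 for Heyl 1419303_at and -0.068 to +0.095 for Lfng 1420643_at. The pairs ran from -0.15 to +0.027 for Notch3, -0.25 to +0.051 for Jag1 1421106_at and -0.32 to +0.46 for Jag2. The cause was not tested. The number of arrays limits the precision, and the widest error among the members was that of Jag2 1426431_at (SE 0.55), whose signals reached down to 9.37.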

Other observations

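The 46 other pathway genes had 95 probe sets in all, 3 of which had an unadjusted p under 0.05, near the 4.51% of all probe sets that did. They were chosen after their values were seen. Hes5, a Notch target of the nervous system, was at -1.23 (limma, unadjusted p = 0.0152) on a probe set other than its brightest, which was at +0.42 (SE 0.57). The signals behind the lower value were 1.54 to 10.5 in the mutant and 6.12 to 18.2 in wild type, overlapping and too dim to read a change from. Of the gamma-secretase subunits, Aph1b was at +0.39 (unadjusted p = 0.0334) and Psen2 at -0.39 (unadjusted p = 0.0437), each on a dimmer probe set whose sign was opposite to that of the gene's brightest one. No member probe set, and none of the 6 pathway genes with the smallest p of their class, had an array that stood apart from the rest of its group of 5 by more than Dixon's limit, where chance alone would mark 2.5 of the 50 groups examined.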
